A study of Mus musculus with 11 samples.

Results

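The 5 genes described here encode the motor and the track of striated and smooth muscle: the alpha and beta cardiac myosin heavy chains (Myh6 and Myh7), skeletal alpha-actin (Acta1), cardiac alpha-actin (Actc1) and smooth muscle alpha-actin (Acta2). They were chosen by name, and all 5 were present among the 18194 genes that have a probe set with exactly 1 gene symbol. Together they had 8 such probe sets, and a gene's reported level comes from its brightest probe set on average, with the others given beside it. Total RNA from the left ventricle of C57BL/6 mice was measured on Affymetrix expression arrays. The groups were adult hearts labelled HMGN5 transgenic (3 arrays), adult hearts labelled wild-type control (3 arrays), newborn transgenic hearts (3 arrays) and newborn controls (2 arrays), called biological replicates in the labels. HMGN5 is a nucleosome-binding protein that loosens chromatin. Transgenic mice carried a mouse Hmgn5 cDNA with a FLAG tag, placed behind a floxed LacZ cassette and the CAG promoter, together with an alphaMHC-cre transgene that removes LacZ in heart muscle. The labels give the controls as wild-type and do not say that they carried cre, so effects of cre and of Hmgn5 cannot be told apart. The alpha myosin heavy chain promoter that drives this cre is that of Myh6, one of the genes reported here.

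Myosin heavy chain forms the heads and rods of the thick filament, and actin polymerises into the thin filament on which it pulls. In the mouse ventricle the beta chain is abundant before birth and gives way to the alpha chain afterwards, a switch driven by thyroid hormone, and the beta chain and skeletal actin are classic markers of a loaded or failing heart. Smooth muscle actin is made by early heart muscle cells, and in the adult mainly by vessel walls and activated fibroblasts.

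Short stretches of RefSeq promoters (GRCm38.p6) are shown because the actin genes are textbook targets of serum response factor, which binds the CArG box, and because TEAD factors bind the MCAT element CATTCC in muscle genes. The windows searched run from 250 bases before to 50 bases after the annotated start, and both strands were read. All 5 genes had a window, and Myh7 had a second one, which makes 6. An exact CArG box stood in the windows of Acta1 and Actc1 and in 1.63% of all 32851 windows. With at most 1 mismatch, matches that include the exact ones, it stood in those of Myh6, Acta1, Actc1 and Acta2 and in 21.1% of all windows. CATTCC stood in windows of Myh6, Myh7, Acta1 and Acta2 and in 14.7% of all windows, and TATAAA in those of Myh6, Acta1 and Actc1 and in 13.6%. These are matches of letters, and binding was not measured. Each stretch below is written 5′ to 3′ on the strand of its gene, the minus strand in every case, with the match in capitals; read on the opposite strand, the MCAT element is GGAATG in these stretches.
Exact CArG box of Acta1, chr8:123894829-123894858: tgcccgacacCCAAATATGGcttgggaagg
Exact CArG box of Actc1, chr2:114052903-114052932: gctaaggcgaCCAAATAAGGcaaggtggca
CArG box with 1 mismatch of Acta2, chr19:34255438-34255467: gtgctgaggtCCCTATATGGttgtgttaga
CArG box with 1 mismatch of Acta2, chr19:34255388-34255417: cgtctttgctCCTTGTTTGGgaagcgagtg
MCAT element of Acta1, chr8:123894804-123894833: gaagggcagcaaCATTCCttcggggcggtg
MCAT element of Acta2, chr19:34255502-34255531: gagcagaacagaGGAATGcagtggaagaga
MCAT element of Myh7, chr14:54994810-54994839: ctagtgagccgtGGAATGttagagatattt
MCAT element of Myh6, chr14:54966796-54966825: ctttggggaggaGGAATGtgcccaaggact

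Myh6 and Myh7 are neighbours on chromosome 14, and each contains the gene of a microRNA that is made with its host transcript. Their mature 3p sequences are shown because these microRNAs are known regulators of the beta chain; the arrays read the host transcripts and not the mature microRNAs. The seeds (bases 2 to 8, in capitals) are identical, and the sequences differ at 3 of 22 positions, counted from 1 at the 5′ end: G10A, A16G and C18U from miR-208a to miR-208b.
mmu-miR-208a-3p, inside Myh6, chr14:54949072-54949093, minus strand: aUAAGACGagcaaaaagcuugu
mmu-miR-208b-3p, inside Myh7, chr14:54975710-54975731, minus strand: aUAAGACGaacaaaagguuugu

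Values are the authors' log2 probe-set values, so a difference of 1 is a change of 2-fold, and levels of different probe sets are not set against each other. Array medians lay between 5.12 and 5.18. Cardiomyocyte markers (8 genes, among them Tnnt2, Tnni3 and Ttn) had a mean of 12.82 to 13.22 on all 11 arrays, and none was called between transgenic and control at either age. The Hmgn5 probe set read 8.42 ± 0.25 (SD, n = 3) in transgenic adults and 8.57 ± 0.17 (n = 3) in adult controls, and it did not pass the test (log2 difference -0.16, limma adjusted p = 0.647). In newborns the log2 difference was -0.13 and was not called either, so the transgene was not seen in these values. Where in Hmgn5 this probe set lies is not given in the sources used here, so whether it could read the cDNA is not known. Below, "transgenic" means the libraries labelled so. Adult replicate 3 of both groups stood apart with a mean of 12.18 (transgenic) and 11.89 (control) over 3 control probe sets for 18S ribosomal RNA, against 7.64 to 8.58 on the other 4 adult arrays. The mean of the atrial genes Myl4, Myl7 and Sln also differed between arrays. It was 10.53, 6.59 and 6.52 on the 3 transgenic adult arrays and 10.10, 10.38 and 12.24 on the 3 adult controls. Newborn arrays read 12.50 to 12.87 for this mean and 10.05 to 10.53 for 18S. Other atrial markers did not all follow it: Dkk3 read 7.78, 8.11 and 8.64 in transgenic adults against 5.54, 6.12 and 7.53 in controls. Stard10 went the other way, at 7.18, 6.72 and 6.79 against 8.07, 8.66 and 9.30. Of the 10 listed atrial markers 1 was called higher and 1 lower in transgenic adults, and their median log2 change was -0.80.

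In adult hearts, Myh7, Acta1 and Acta2 were higher in transgenic mice, and Myh6 and Actc1 did not pass the test. A gene was called at a limma adjusted p under 0.05 over all genes. By this rule 3 of the 5 genes were called higher and 0 lower, where 7.09% of all genes were called, 4.16% higher and 2.93% lower. The median log2 change of the 5 genes was 1.56, and that of all genes 0.00475. The 5 genes were chosen with earlier results of these data known, so this count and median are not independent evidence. In bulk RNA, more cells of a type and more RNA per cell cannot be told apart.

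Myh7, the beta chain, read 12.86, 13.08 and 12.93 on the transgenic adult arrays and 12.10, 9.45 and 9.58 on the adult controls. The groups did not overlap, a separation that 10% of all genes showed with the transgenic arrays above and 7.94% with them below, but control replicate 1 lay much closer to the transgenic arrays than to the other controls. The means were 12.96 ± 0.11 and 10.38 ± 1.50 (log2, SD, n = 3 each), a log2 difference of 2.58 (SE 0.53, 95% interval 1.41 to 3.76, limma adjusted p = 0.0147), or 5.99-fold. The call depended on which controls were included. The limma adjusted p was 0.0620 without control replicate 2 and 0.0519 without control replicate 3, with log2 differences of 2.12 and 2.19. Without control replicate 1 the log2 difference was 3.45 (limma adjusted p = 1.76e-06). With the 6 adult arrays alone the same log2 difference of 2.58 had a limma adjusted p = 0.108. With the mean of Myl4, Myl7 and Sln as a covariate it was 2.04 (limma adjusted p = 0.278). Transgenic replicates 2 and 3 lay below all controls for that mean, so the covariate partly follows the group label. Between the pair of arrays with high 18S signal the log2 difference was 3.35, with no replicate, and it was 2.20 over the other 4 adult arrays (limma adjusted p = 0.0379).

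Acta1, the actin of skeletal muscle, read 13.58, 13.25 and 13.70 on the transgenic adult arrays and 11.52, 10.16 and 11.36 on the adult controls. Every transgenic array lay above every control, by 1.73 or more. The log2 difference was 2.49 (SE 0.29, 95% interval 1.86 to 3.13, limma adjusted p = 7.22e-04), or 5.63-fold. It was called in each of the 22 other settings tried, with log2 differences of 2.07 to 2.75. On the arrays with high 18S signal the log2 difference was 2.34 and on the other adult arrays 2.57. Acta1 was the only one of the 5 genes whose transgenic adult level lay above every newborn array.

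Acta2, the actin of smooth muscle, read 12.52, 12.18 and 12.33 on the transgenic adult arrays against 10.95, 10.20 and 11.19 on the adult controls, again without overlap. The log2 difference was 1.56 (SE 0.21, 95% interval 1.10 to 2.02, limma adjusted p = 0.00162), or 2.95-fold. It was called in each of the 22 other settings, with log2 differences of 1.20 to 1.88. It was 1.14 between the arrays with high 18S signal and 1.77 over the other adult arrays. A second Acta2 probe set, 1444105_at, read lower throughout and moved the same way: 5.98, 5.87 and 7.02 in transgenic adults against 4.71, 4.23 and 4.35 in controls, a log2 difference of 1.86 (SE 0.27, limma adjusted p = 0.00578 over all probe sets). The dimmest, 1456658_at, read 3.14 to 3.59 on all adult arrays and was not called (log2 difference 0.18, SE 0.13, limma adjusted p = 0.629).

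**Figure D1:**
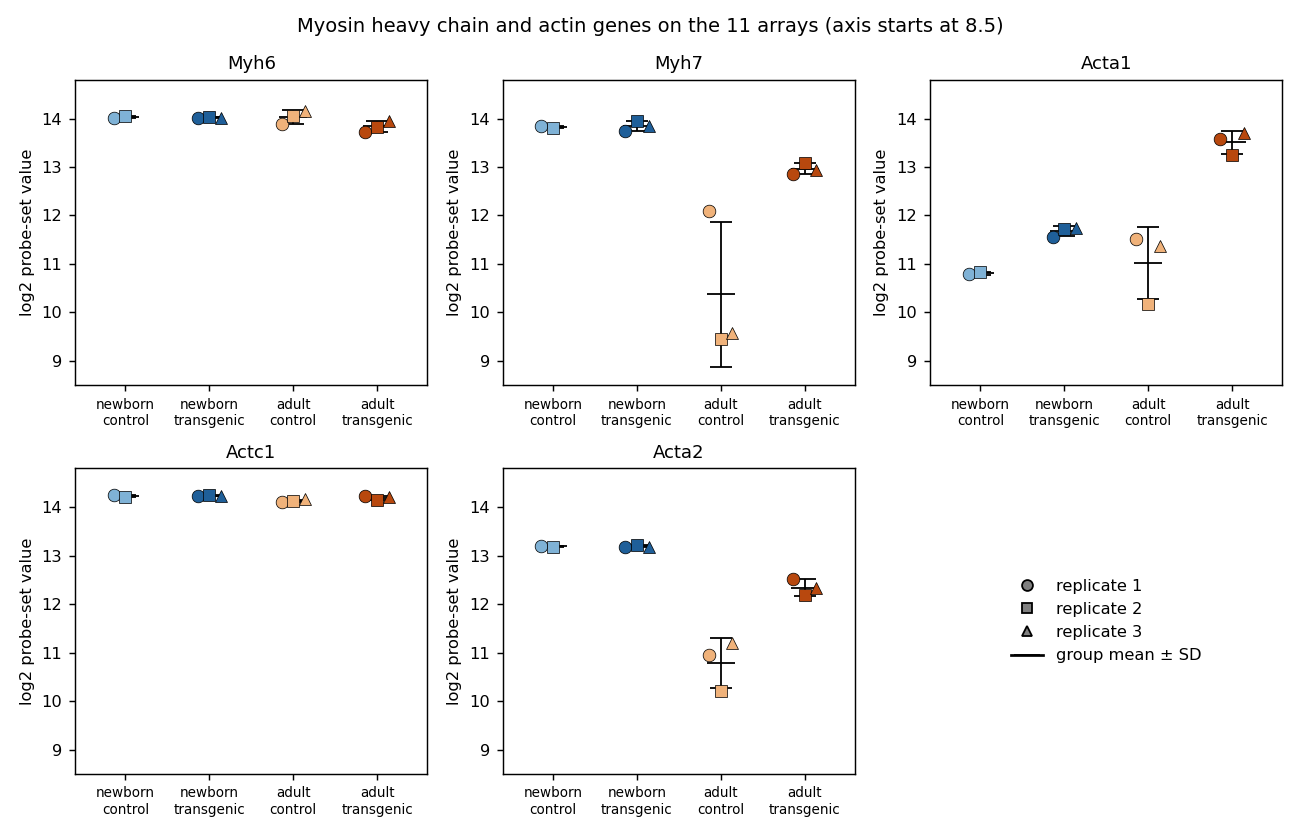
Log2 probe-set value of each gene (vertical axis) on each of the 11 arrays, by group; symbols mark the replicate number, and bars give the group mean and SD. Myh7 and Acta2 are high in newborns, low in adult controls and in between in transgenic adults, Acta1 is highest in transgenic adults (13.25 to 13.70), and Myh6 and Actc1 stay near the top of the scale.

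Actc1, the main actin of heart muscle, read 14.23, 14.14 and 14.21 in transgenic adults and 14.11, 14.12 and 14.16 in adult controls, and the groups overlapped. The log2 difference was 0.06 (SE 0.09, 95% interval -0.13 to 0.26, limma adjusted p = 0.783). These are among the highest values on the arrays: on transgenic replicate 3 Actc1 was the highest of all probe sets, and on the other adult arrays it lay 0.13 to 0.25 below the highest. Differences at such levels can be compressed by the array's upper limit, and by how much was not tested.

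Myh6, the alpha chain, read 13.73, 13.83 and 13.95 in transgenic adults and 13.89, 14.05 and 14.16 in adult controls. The groups overlapped, although transgenic replicates 1 and 2 lay below all 3 controls. The log2 difference was -0.20 (SE 0.11, 95% interval -0.43 to 0.04, limma adjusted p = 0.349). Myh6 too was near the top of the scale, with 3 to 19 of the 45101 probe sets above it on the adult arrays. The other Myh6 probe set, 1417729_at, read 8.74, 8.58 and 10.87 in transgenic adults and 8.15, 10.12 and 11.58 in controls, highest in each group on the array with high 18S signal. The part of RNA quality in this spread was not tested, and the probe set was not called (log2 difference -0.55, SE 0.78, limma adjusted p = 0.853). A further 2 probe sets carry both myosin names in the annotation and were left out.

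**Figure D2:**
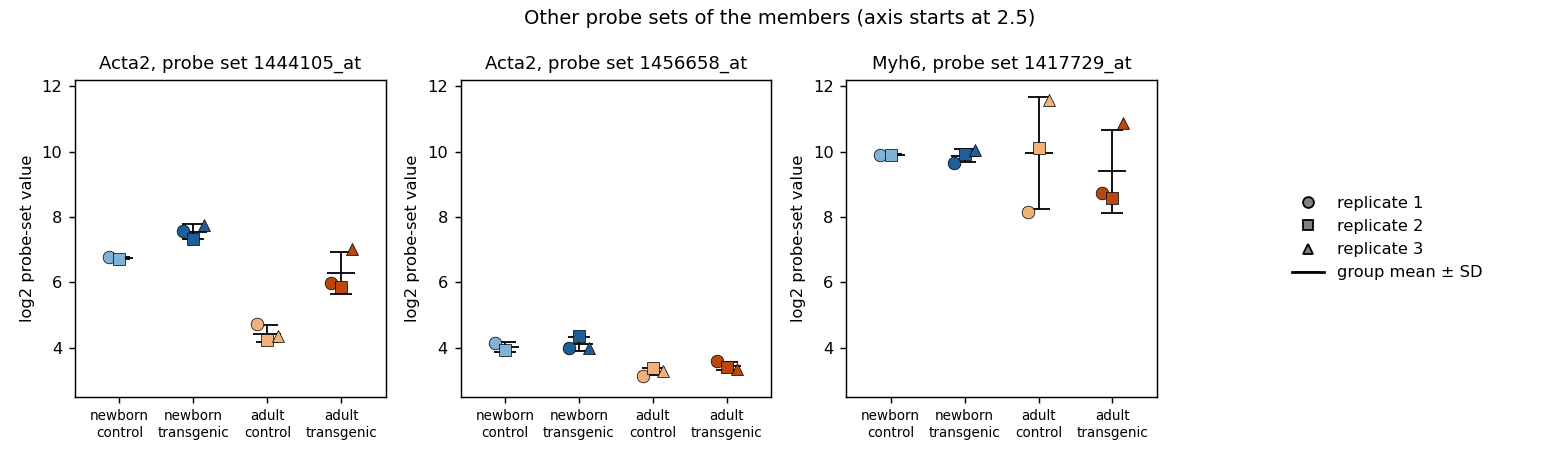
Log2 value (vertical axis) of the 3 further probe sets of Acta2 and Myh6 on each array, by group, with group mean and SD. The Acta2 probe set 1444105_at separates transgenic from control arrays at both ages, but this difference was called in adults only. Among all genes 10% separated with transgenic above in adults and 11.1% in newborns. The Myh6 probe set 1417729_at spans 8.15 to 11.58 within adult controls.

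In newborn hearts none of the 5 genes passed the test, and neither did any other gene: limma called 0 of 18194 (0%), with 198 genes at an unadjusted p under 0.05. Myh7 read 13.74, 13.95 and 13.85 on the transgenic arrays and 13.85 and 13.80 on the controls, a log2 difference of 0.02 (95% interval -1.30 to 1.34). Acta2 read 13.17 to 13.22 on all 5 newborn arrays. Myh6 read 14.01 to 14.05 and Actc1 14.22 to 14.25 on the same arrays. The intervals of these log2 differences were -0.28 to 0.25 for Myh6, -0.21 to 0.22 for Actc1 and -0.52 to 0.52 for Acta2.

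Acta1 was the gene of the 5 with separated newborn groups. It read 11.56, 11.73 and 11.75 in transgenic newborns and 10.78 and 10.83 in controls. The log2 difference of 0.87 (SE 0.32, 95% interval 0.16 to 1.58) had an unadjusted p = 0.0205 and a limma adjusted p = 0.99999, so it did not pass. Groups of arrays that do not overlap, were found with transgenic above for 11.1% and below for 9.83% of all genes in newborns. With the newborn arrays alone, whose spread is narrower, the limma adjusted p was 0.353 (SE 0.09). The Acta2 probe set 1444105_at was separated in the same direction, at 7.58, 7.32 and 7.77 against 6.78 and 6.73 (log2 difference 0.80, SE 0.31, limma adjusted p = 1 over all probe sets).

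The effect of the transgene label was not shown to differ between the ages for any of the 5 genes, where 0.687% of all genes were called. The adult effect exceeded the newborn effect by 1.56 on the log2 scale for Acta2 (SE 0.31, limma adjusted p = 0.0563), by 2.56 for Myh7 (SE 0.80, limma adjusted p = 0.237) and by 1.62 for Acta1 (SE 0.43, limma adjusted p = 0.147). The 95% intervals were 0.87 to 2.25, 0.80 to 4.33 and 0.67 to 2.57. Acta2 lay close to the threshold and crossed it in several other settings, with the arrays of high 18S signal as a factor among them (limma adjusted p = 0.0186). Without adult control replicate 1, Myh7 was called, at 3.43 (SE 0.17, limma adjusted p = 5.09e-05). With array weights Myh7, Acta1 and Acta2 were all called. For Myh6 and Actc1 the log2 differences of effects were -0.18 (SE 0.16) and 0.06 (SE 0.13).

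**Figure D3:**
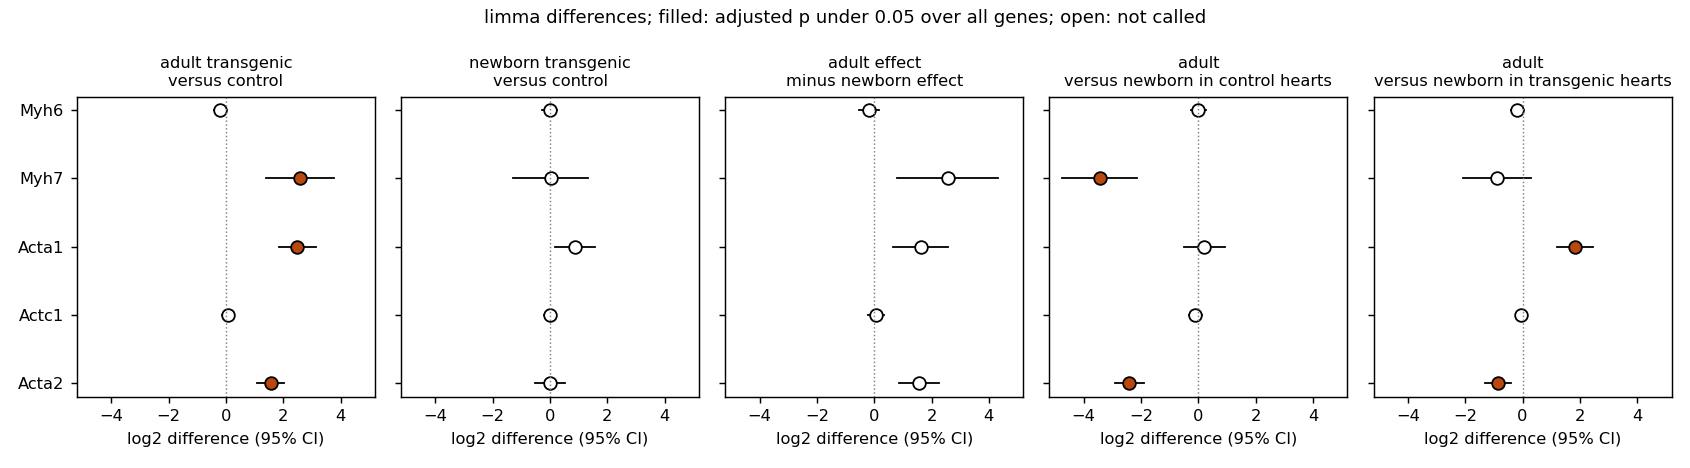
limma log2 differences with 95% confidence intervals (horizontal axis) for the 5 genes in each of the 5 comparisons; filled points passed an adjusted p under 0.05 over all genes. Myh7, Acta1 and Acta2 are filled in the adult comparison and no gene is filled in the newborn one or in the difference of effects.

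Between birth and adulthood, control hearts lost Myh7 and Acta2 transcript. Both were called lower and none of the 5 higher, where 33% of all genes were called, 18.1% lower. Myh7 fell by 3.45 on the log2 scale (SE 0.60, limma adjusted p = 0.00138), or 10.9-fold, from 13.80 and 13.85 on the newborn control arrays. Without adult control replicate 1 the log2 difference was -4.31 (SE 0.13), and without replicate 2 it was -2.98 (SE 0.59), both still called by limma. Acta2 fell by 2.41 on the log2 scale (SE 0.23, limma adjusted p = 3.05e-05), or 5.31-fold. For Acta1 the log2 difference between adult and newborn controls was 0.21 (SE 0.32, limma adjusted p = 0.629). Adult control replicate 2, the lowest at 10.16, decides this value: without it the log2 difference was 0.63 (limma adjusted p = 0.0178). Myh6 and Actc1 had log2 differences of 0.00 (SE 0.12) and -0.11 (SE 0.10) and were not called. This comparison shares the adult controls with the one between transgenic and control adults.

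In transgenic hearts the fall with age was called for Acta2, at -0.85 on the log2 scale (SE 0.21, limma adjusted p = 0.00913), and Acta1 was called higher in adults by 1.83 (SE 0.29, limma adjusted p = 6.98e-04). Of all genes 39.4% were called in this comparison, 19.7% higher and 19.7% lower. With the mean of Myl4, Myl7 and Sln as a covariate the Acta2 difference was -0.34 and was not called (limma adjusted p = 0.580). That mean was 6.52 to 10.53 on transgenic adult arrays and 12.50 to 12.87 on transgenic newborn arrays. The covariate thus separates the ages by itself, and the lost call cannot be ascribed to atrial muscle. Myh7 read 0.89 lower in transgenic adults than in transgenic newborns on the log2 scale (SE 0.53, limma adjusted p = 0.203). With only these 6 arrays in the fit the same log2 difference had a limma adjusted p = 0.00150, and without adult control replicate 1, whose Myh7 value widens the shared spread, 2.06e-04. Set against newborn controls as a description, the transgenic adult mean lay 0.86 lower for Myh7, 0.85 lower for Acta2 and 2.70 higher for Acta1 on the log2 scale.

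Among 10 other myosin heavy chains 2 were called in adult hearts, where 7.09% of all genes were. Of 6 measured sarcomeric chains other than Myh6 and Myh7, 0 rose and 1 fell (median log2 change -0.07): Myh7b, a slow-type chain of heart and muscle, fell by 1.10 (SE 0.29, limma adjusted p = 0.0461). The fast skeletal chains Myh1, Myh2 and Myh4 read 3.29 to 4.89 on the adult arrays. Of 4 smooth muscle and non-muscle chains 1 rose and 0 fell (median 0.17): Myh10, the non-muscle IIB chain, rose by 0.67 (SE 0.17, limma adjusted p = 0.0403). Myh11, the smooth muscle chain, had a log2 difference of 0.10 (SE 0.21). Between newborn and adult controls Myh10 fell by 2.29 (SE 0.19) and the embryonic-to-neonatal chain Myh8 by 0.76 (SE 0.17), while the non-muscle chain Myh14 rose by 3.09 (SE 0.28).

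Of 15 myosin light chains and light chain kinases, 2 rose and 1 fell in transgenic adults (median log2 change -0.01). The shares over all genes were 4.16% higher and 2.93% lower. Myl1, an essential light chain of fast skeletal muscle, read 12.64, 12.27 and 12.33 in transgenic adults against 10.74, 8.98 and 11.19, a rise by 2.11 (SE 0.44, limma adjusted p = 0.0153). Myl9, the regulatory light chain of smooth muscle, rose by 1.26 (SE 0.23, limma adjusted p = 0.00843). The kinase gene Mylk4 fell by 2.28 (SE 0.58, limma adjusted p = 0.0383), with values of 8.20, 8.76 and 5.78 on the transgenic arrays. Myl7, the atrial regulatory light chain, had a log2 difference of -3.23 (SE 0.92, limma adjusted p = 0.0605). In controls Myl9 fell by 4.11 with age (SE 0.26) and Mylk4 rose by 3.31 (SE 0.65).

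Among 26 genes of other actins and actin assembly, 2 rose and 2 fell in transgenic adults (median log2 change 0.23). Over all genes 4.16% rose and 2.93% fell. The actin crosslinkers Actn1 and Actn4 rose by 0.91 (SE 0.20) and 0.62 (SE 0.11). The pointed-end capper Tmod4 fell by 1.98 (SE 0.39) and the nebulin relative Nebl by 0.66 (SE 0.17). Their limma adjusted p was at most 0.0369. The cytoplasmic actins Actb and Actg1 had log2 differences of 0.24 (SE 0.26) and 0.25 (SE 0.18) and were not called. Of 17 thick filament partners 0 rose and 1 fell (median 0.15): Unc45b, the myosin-folding chaperone of striated muscle, read 10.16, 10.28 and 10.40 against 10.96, 11.19 and 11.17, a fall by 0.82 (SE 0.11, limma adjusted p = 0.00172). In controls 5 of the 26 actin genes were higher and 10 lower in adults than in newborns. The shares over all genes in that comparison were 14.9% higher and 18.1% lower. Actn4 and the actin-monomer binder Pfn1 fell by 1.09 (SE 0.13) and 1.17 (SE 0.15). The thick filament list of 17 had 4 higher and 1 lower, led by the ubiquitin ligase Trim54, which rose by 2.94 (SE 0.32).

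Of 25 transcription factors and cofactors that act on these genes, 1 rose and 0 fell in adults (median log2 change -0.13), a share not set apart from the 7.09% called over all genes. It was the calcineurin-responsive factor Nfatc4, which rose by 0.47 (SE 0.10, limma adjusted p = 0.0195). Srf, serum response factor itself, read 8.21, 8.16 and 8.69 against 7.82, 7.78 and 8.06 (log2 difference 0.47, SE 0.15, limma adjusted p = 0.104). Sox6, a repressor of slow muscle genes, had a log2 difference of -0.60 (SE 0.16, limma adjusted p = 0.0519) and Mef2a one of -0.40 (SE 0.17, limma adjusted p = 0.209). With age, 10 of the 25 fell in controls and 0 rose, where 18.1% of all genes fell and 14.9% rose. Among those that fell were Tead2, one of the factors that bind the MCAT element (log2 difference -3.56, SE 0.17), and Nfatc4 (-0.76, SE 0.12).

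The thyroid hormone genes were included because this hormone sets the balance of the alpha and beta chains. Of 9 measured, 1 rose and 2 fell in transgenic adults (median log2 change -0.26), where 4.16% of all genes rose and 2.93% fell. Dio2, the deiodinase that activates thyroid hormone, read 8.34, 9.34 and 6.39 against 5.43, 4.56 and 4.86, a log2 difference of 3.07 (SE 0.56, limma adjusted p = 0.00821). Its transgenic values were widely spread, but each lay above all 3 controls. The retinoid receptor Rxrg fell by 1.04 (SE 0.17) and the transporter gene Slc16a10 by 0.55 (SE 0.11), with limma adjusted p = 0.00379 and 0.0129. The receptor Thra had a log2 difference of -0.41 (SE 0.19, limma adjusted p = 0.247). In controls Rxrg rose by 3.35 with age (SE 0.18) and Thra fell by 1.03 (SE 0.21).

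Of 9 genes that accompany Myh7 and Acta1 in the fetal and stress programme, 5 rose and 0 fell in transgenic adults (median log2 change 0.75). Among all genes 4.16% rose and 2.93% fell. The fetal and stress list was chosen with earlier results of these data known, so its direction is not independent evidence. The rises were 2.35 (SE 0.19) for Nppa and 2.33 (SE 0.51) for Nppb, which encode natriuretic peptides, 1.56 (SE 0.21) for the stretch-responsive gene Ankrd1, 1.57 (SE 0.23) for Fhl1 and 0.73 (SE 0.16) for desmin, Des. The fetal troponin gene Tnni1 fell by 8.19 between newborn and adult controls on the log2 scale (SE 0.18), and its log2 difference in transgenic adults was 0.33 (SE 0.16, limma adjusted p = 0.285). In the same age comparison Nppa fell by 1.80 (SE 0.21). Of the 9 genes 4 were lower and 0 higher in adult than in newborn controls, and 5 were not called. Over all genes 18.1% were lower and 14.9% higher.

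The counts of called list genes in adults moved with the settings, as did the count over all genes (1290 as reported). With only the compared groups in the fit, and so without the spread shared with newborns, 373 genes were called in all. List counts of that fit are not given here. With the mean of Myl4, Myl7 and Sln as a covariate 238 genes were called in all. Of the fetal and stress genes 1 of 9 was among them, and of the thyroid genes 0 of 9. The actin list had 1 of 26 and the light chain list 1 of 15. Both myosin heavy chain lists and the regulators then had 0. Without the arrays of high 18S signal 2183 genes were called in all, among them 9 actin genes, 3 regulators and 6 fetal and stress genes. Without transgenic replicate 1 there were 912 calls in all, 3 of them fetal and stress genes, and neither Myh7b nor Myh10 was called. Without control replicate 2 there were 746 calls in all and 1 in the actin list.

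Markers of the cell types in which Acta2 is known moved unevenly in adults, where 4.16% of all genes were called higher and 2.93% lower. Of 8 smooth muscle markers 1 was higher and 0 lower in transgenic adults: Cnn1, calponin, which read 6.69, 6.21 and 6.20 against 4.34, 4.53 and 4.73 (log2 difference 1.83, SE 0.19, limma adjusted p = 4.18e-04). Tagln had a log2 difference of 0.94 (SE 0.29, limma adjusted p = 0.0788) and Smtn, smoothelin, one of -0.57 (SE 0.16, limma adjusted p = 0.0592). The median log2 change of the 8 markers was 0.09, with Myh11, Mylk, Kcnmb1 and Lmod1 between -0.11 and 0.10. The mean log2 value of the 8 markers was 6.79 to 7.06 on the transgenic adult arrays and 6.52 to 6.66 on the controls. Of 8 pericyte markers 1 was higher and 2 lower, with means of 8.85 to 8.94 and 8.91 to 9.27. Of 13 fibroblast and myofibroblast markers 3 were higher and 0 lower (median log2 change 0.92), with means of 8.96 to 10.06 against 8.13 to 8.89. Among them Postn, the periostin of activated fibroblasts, rose by 3.18 (SE 0.35, limma adjusted p = 5.32e-04). Within this list the transgenic array with high 18S signal was the lowest of its group (8.96), close to the highest control (8.89). Of 7 macrophage markers 3 were higher and 0 lower (C1qa, C1qc and Mrc1; median log2 change 0.69), with means of 8.32 to 9.27 against 8.22 to 8.66. Of 6 adipocyte markers none was called, but control replicate 3, the highest control for Acta2, had a mean of 6.38 against 4.95 to 5.16 on the other adult arrays, with Adipoq at 7.89 and Ucp1 at 7.62. Without that array the Acta2 difference was 1.77 on the log2 scale and was called. The part of these cell types in the Acta2 result was not tested.

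**Figure D4:**
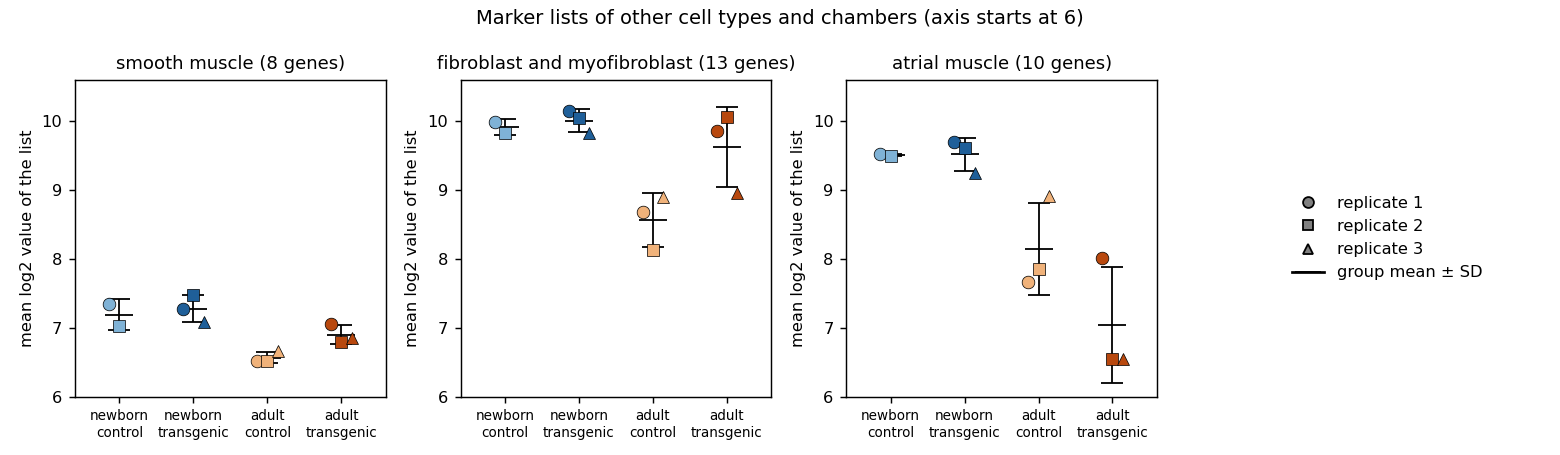
Mean log2 value (vertical axis) of 8 smooth muscle, 13 fibroblast and myofibroblast and 10 atrial muscle markers on each array, by group, with group mean and SD. The smooth muscle mean is 6.79 to 7.06 on transgenic and 6.52 to 6.66 on control adult arrays although the median change of its genes is 0.09, fibroblast markers are at 8.96 to 10.06 against 8.13 to 8.89, and atrial markers are lowest on transgenic adult replicates 2 and 3 (6.55 and 6.54).

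Of 14 skeletal muscle markers 1 was higher and 0 lower in transgenic adults, where 4.16% of all genes were higher and 2.93% lower. Their means were 5.18 to 5.38 on the transgenic arrays and 4.96 to 5.31 on the controls. Tnnt3, the fast troponin T gene, was the one called (log2 difference 0.84, SE 0.18, limma adjusted p = 0.0169). It read 4.90, 4.40 and 4.89 against 3.95, 4.15 and 3.57, all below the array medians of 5.12 to 5.18. Of 10 atrial markers 1 was higher and 1 lower (median log2 change -0.80), with means of 6.54 to 8.01 against 7.66 to 8.91.

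Genes with the most similar pattern were taken as the 3 with the smallest root mean square difference from each member, after centring log2 values over the 11 arrays. For Acta2 they were the collagen gene Col5a2 (0.23), the Wnt receptor gene Fzd2 (0.26) and the collagen gene Col1a2 (0.31), against an SD of 1.07 for Acta2 itself over the arrays. For Myh7 (SD 1.65) they were Postn (0.65), S100a4 (0.66) and Hmgn3 (0.68), and for Acta1 (SD 1.18) Fam124a (0.42), the Wnt antagonist gene Frzb (0.42) and the microfibril gene Mfap5 (0.47). For Myh6 (SD 0.12) they were the calcium pump gene Atp2a2 (0.05), the ATP synthase gene Atp5a1 (0.05) and Fermt2 (0.06). For Actc1, whose SD was 0.05, the nearest genes were Tpt1 (0.03), Foxd1 (0.04) and Mfsd14a (0.04), and with so little variation this likeness says little. Among the members the closest pattern to Myh7 was that of Acta2, at 0.77, against 1.66 for Acta1. All arrays of an age share their developmental stage, which enters each of these values.

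**Figure D5:**
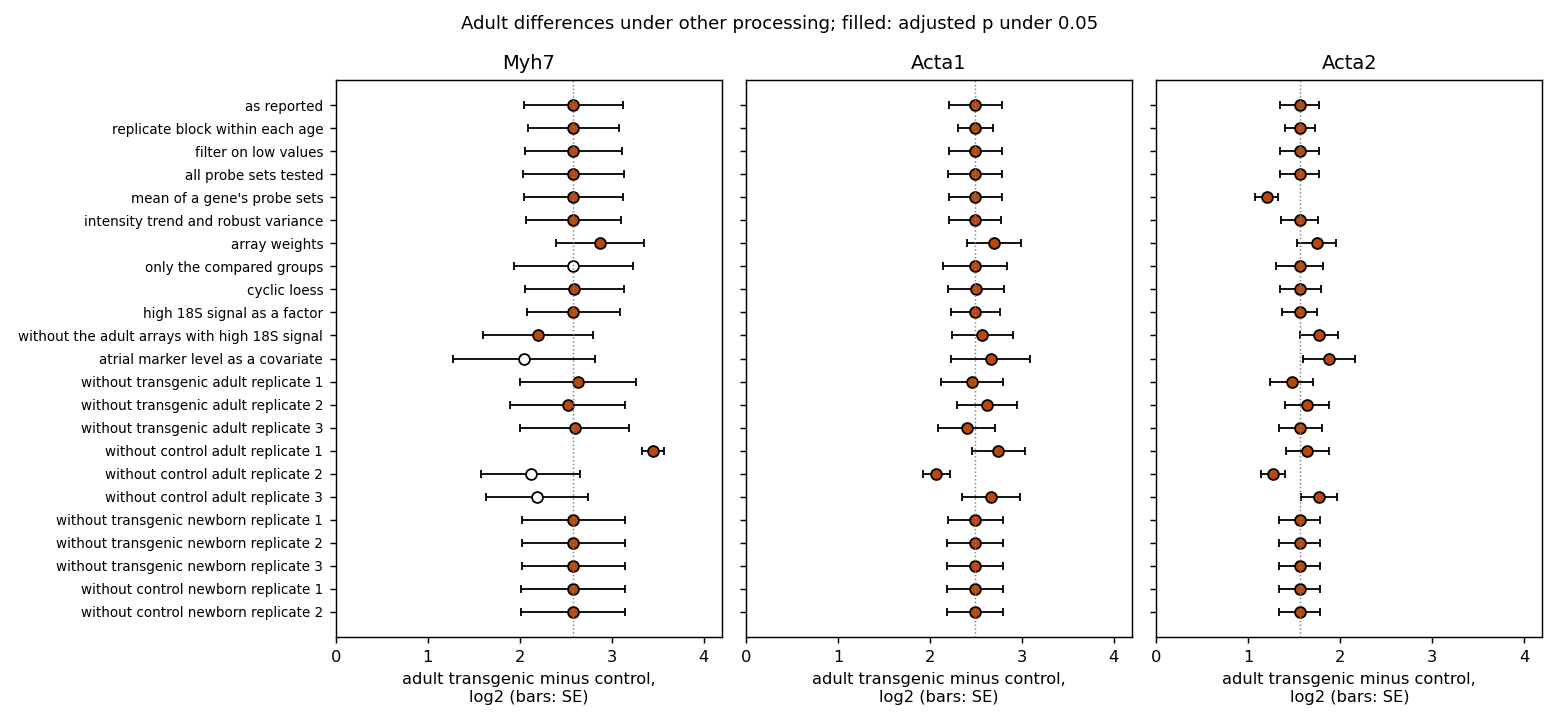
Log2 difference between transgenic and control adults (horizontal axis, bars: SE) for Myh7, Acta1 and Acta2 as reported and in 22 other settings; filled points have an adjusted p under 0.05. Acta1 and Acta2 are filled throughout, and Myh7 is open in 4 settings.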

How the data were processed

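Affymetrix arrays were read for 11 mouse hearts. The authors deposited log2 probe-set values. The submitters' processing notes name RMA, affy and limma, without versions or roles, and the genome build is not given in the sources used here. Array medians are nearly equal, so a shift shared by most transcripts cannot be seen. Of 45101 probe sets 34958 had 1 gene symbol in the platform annotation, 932 several and 9211 none listed; 34754 matched RefSeq (GRCm38.p6) by gene ID, with 0 symbols changed. Each of 18194 genes took its probe set with the highest mean.

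All 4 groups entered a single linear model, with 1 mean per group (limma 3.58.1, R 4.3.3; lmFit and eBayes; 7 residual and 3.85 prior degrees of freedom), 2-sided, with Benjamini-Hochberg adjustment over all genes; the code was checked on simulated data. The 5 genes varied more on adult than on newborn arrays and share 1 spread here, which is then too narrow for adults and too wide for newborns. Members, 8 gene lists and 10 marker lists were chosen with earlier results of these data known. Named list genes are up to 4 with the smallest p in the adult comparison and up to 2 in the control age comparison; the markers and any other gene were named after their values were seen. The likeness rule passed over clone names. Alternatives were a replicate block, a filter (above the 40th percentile on at least 2 arrays), averaging the probe sets of a gene, testing all of them, a trended robust variance, array weights, fits on the compared groups alone, cyclic loess, 18S signal as a factor or left out, an atrial covariate and leaving out each array. The atrial covariate was the mean of Myl4, Myl7 and Sln, which itself differed between the ages and between adult arrays. The number of arrays limits the precision.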

Additional observations from a re-analysis of the deposited data

How the results depend on the processing

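Acta1 and Acta2 stayed called as higher in transgenic adults in all 22 settings and Myh7 in 18, while Myh6 and Actc1 were called in none. Myh7 lost the adult call with only the compared groups (2.58, adjusted p = 0.108) and with the atrial covariate (2.04, adjusted p = 0.278); leaving out each array gave 2.12 to 3.45. For the difference of effects between ages, 0 members were called as reported, 1 (Acta2) with the filter on low values (1.56), trend and robust variance (1.56), the 18S factor (1.56) or without the arrays of high 18S signal (1.77), and 3 with array weights (Myh7 2.82, Acta1 1.81, Acta2 1.74); leaving out each array gave 0 to 1 members (Myh7 without control replicate 1, otherwise Acta2), 2.10 to 3.43 for Myh7 and 1.27 to 1.76 for Acta2. Between ages in transgenic hearts, Myh7 was called with only the compared groups (-0.89), Myh6 with the 18S factor (-0.25, adjusted p = 0.0494), and Acta2 was not with the atrial covariate (-0.34), which left 1 member called; leaving out each array gave -0.95 to -0.83 for Myh7. In controls leaving out each array gave -0.044 to 0.63 for Acta1 and -4.31 to -2.98 for Myh7. The fit with only the compared groups estimates the spread from fewer arrays; otherwise the cause was not tested. Over all settings 238 to 2625 genes were called in adults (1290 as reported), 6 to 841 for the difference of effects (125), 2829 to 11046 between ages in controls (6006) and 1828 to 13620 in transgenic hearts (7161); the highest age counts are over all probe sets.

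Deviations of same-numbered adult arrays from their group means correlated at 0.31, -0.06 and 0.45, so the replicate numbers were not taken as pairs. With the replicate block Myh7, Acta1 and Acta2 stayed called in adults (2.58, 2.49 and 1.56; adjusted p = 0.0253, 0.00151 and 0.00353), with 1488 genes called in all, and 53 genes were called for the difference of effects, against 125. The block lies within each age and could not be fitted for the age comparisons. The signal of Actc1 and Myh6, near the top of the scale, limits what can be seen of them.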

Other observations

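On the adult control arrays, replicate 2 was the lowest for all 3 genes called in adults, while the highest array differed between them. Control replicate 1 was highest for Myh7 (12.10, against 9.45 and 9.58) and for Acta1 (11.52, against 10.16 and 11.36), while control replicate 3 was highest for Acta2 (11.19, against 10.95 and 10.20). For Nppb the same control arrays read 12.63, 11.23 and 10.06, for Myl1 10.74, 8.98 and 11.19, and for Postn 9.27, 7.89 and 9.39; these genes were picked for this description after their values were seen. The transgenic adult arrays lay within 0.22 of each other for Myh7, within 0.45 for Acta1 and within 0.34 for Acta2.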
